A study of Mus musculus with 2 samples.

Results

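The nuclei described here are GABA neurons of the mouse hippocampus that carried Adarb2 transcripts and no Lhx6 or Lamp5 transcript, a selection meant to hold interneurons of Vip or Cck type. A nucleus was taken when it had at least 500 genes, at most 5% of its UMIs (unique molecular identifiers, 1 per captured RNA molecule) in mitochondrially encoded genes, and at least 4 UMIs of Gad1, Gad2 and Slc32a1 together. It also needed at least 3 Adarb2 UMIs, none of Lhx6 or Lamp5, at most 1 UMI of 6330411D24Rik and Ebf2 together, and at most 2 of the oligodendrocyte genes St18, Prr5l and Mag together. The selection gave 208 nuclei, 117 male and 91 female ones, of 1173 GABA nuclei and 35285 nuclei in all. They are called Adarb2 GABA nuclei below, and the 436 male and 529 female GABA nuclei that did not meet the rule are the other GABA nuclei.

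Single-nucleus RNA was sequenced from the hippocampus of 3-month-old mice of the genotype Stra8L/-; Nestin-Cre, 1 library from a male and 1 from a female sample. Nestin-Cre is expressed in neural progenitors, so recombination is passed to the neurons and macroglia derived from them. Both libraries carry the deletion and the Cre, and no library of another genotype was analysed, so nothing here measures an effect of Stra8. No Stra8 UMI was found in any Adarb2 GABA nucleus, which allows up to 2.43 CPM (male) and 2.88 CPM (female), and the other GABA nuclei had none either, so the gene checks nothing in these cells. CPM are UMIs counted per 1000000 UMIs summed over a group of nuclei. With 1 library per sex there is no replicate and no test: a difference of sex cannot be told apart from one between the animals or their libraries, and each interval is a 95% interval of counting error only.

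Hippocampal interneurons arise in the ganglionic eminences of the embryonic brain. Those of the medial eminence keep the transcription factor Lhx6, whereas many of those from the caudal eminence express Adarb2, which encodes an RNA-binding protein of the ADAR family. Among the caudal cells, interneurons with vasoactive intestinal peptide (Vip) contact mainly other interneurons, and basket cells with cholecystokinin (Cck) contact pyramidal neurons and carry the cannabinoid receptor Cnr1 on their terminals, where endocannabinoids reduce GABA release. The serotonin receptor channel Htr3a is a general marker of caudal interneurons.

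The promoters of the genes that name these cell types are shown because Vip and Cck divide the nuclei further on. They are the 300 bases from 250 before to 50 after the annotated start, from RefSeq on GRCm38.p6, written 5′ to 3′ on the gene's strand. Capitals mark TGACG or its reverse complement CGTCA, the core of the cyclic AMP response element. Vip lies on the plus strand at chr10:5638968-5639267 and Cck on the minus strand at chr9:121495645-121495944.
Vip: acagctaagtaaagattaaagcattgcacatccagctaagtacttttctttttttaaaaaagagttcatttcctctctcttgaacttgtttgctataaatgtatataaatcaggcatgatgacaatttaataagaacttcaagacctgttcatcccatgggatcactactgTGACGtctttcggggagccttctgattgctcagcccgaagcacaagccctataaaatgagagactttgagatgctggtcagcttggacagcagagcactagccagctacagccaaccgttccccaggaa
Cck: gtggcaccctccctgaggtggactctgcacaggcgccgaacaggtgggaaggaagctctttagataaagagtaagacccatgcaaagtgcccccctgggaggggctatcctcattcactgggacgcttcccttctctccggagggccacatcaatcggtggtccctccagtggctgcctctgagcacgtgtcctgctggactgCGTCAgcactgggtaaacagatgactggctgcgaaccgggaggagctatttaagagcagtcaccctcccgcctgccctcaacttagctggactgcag
Each promoter held 1 such pentamer, starting 79 bases before the start in Vip and 47 before it in Cck, and 6837 of 32851 mouse promoters of this length (20.8%) held at least 1. The match describes the letters only.

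The whole libraries held 103262825 UMIs in 16174 barcodes (male) and 108286856 UMIs in 20150 barcodes (female), and 16034 and 19251 barcodes passed the filter. The Adarb2 GABA nuclei summed to 1235639 and 1041727 UMIs, with medians of 9630 and 9229 UMIs and of 3651 and 3572 genes per nucleus. The other GABA nuclei were deeper, at medians of 11105 and 13390 UMIs. The libraries share 101 barcodes, none of which was an Adarb2 GABA nucleus in both, while 1 female one had its barcode among the male barcodes. Sex-linked genes fitted the labels: Xist in these nuclei was at 0.809 CPM (male) and 1963 CPM (female), and Uty at 152 and 1.92 CPM.

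Adarb2 GABA nuclei made up 21.2% of the male GABA nuclei (95% interval 17.8 to 24.8) and 14.7% of the female ones (12 to 17.7). Of all nuclei that passed the filter they were 0.730% and 0.473%. Of the other GABA nuclei, 252 male and 300 female ones had fewer than 3 Adarb2 UMIs, and for 87 and 109 of them that was the one criterion they missed. A Lamp5 UMI alone kept out 43 and 31 nuclei, and an Lhx6 UMI alone 10 and 11. The limit on St18, Prr5l and Mag alone kept out 36 and 62, and that on 6330411D24Rik and Ebf2 alone 26 and 43. The other GABA nuclei thus include nuclei with at least 3 Adarb2 UMIs and no Lhx6 or Lamp5 UMI. Just inside the Gad limit, at 4 UMIs, 28 male and 19 female nuclei had Cnr1 at 383 and 221 CPM. Just outside it, at 3 UMIs, 72 and 58 nuclei had 218 and 200 CPM.

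Adarb2 itself spanned a wide range. Male nuclei held 3 to 637 Adarb2 UMIs with a median of 59, and female nuclei 3 to 712 with a median of 23. The summed level was 12617 CPM in male and 7968 CPM in female nuclei, against 1764 and 1531 CPM in the other GABA nuclei. A count of 3 was not particular to GABA nuclei: 33.3% (male) and 21.1% (female) of excitatory nuclei without a Gad1, Gad2 or Slc32a1 UMI reached it, at median depths of 9378 and 11827 UMIs. Among oligodendrocyte nuclei, at medians of 2172 and 2233 UMIs, 18.9% and 13.2% reached it. A count of 80 or more was rare outside GABA nuclei, with 45.3% and 29.7% of Adarb2 GABA nuclei, 0.0909% and 0.162% of excitatory nuclei, and 0.0962% and 0.107% of oligodendrocyte nuclei at or above that count. Other GABA nuclei reached it too, 6.65% and 8.32% of them, and 5.71% and 16.7% of the GABA nuclei with at least 2 Lamp5 UMIs. Adarb2 chose the nuclei, so these shares describe the selection.

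Because of that overlap, the nuclei were divided, after the counts had been seen, into those with 3 to 19 Adarb2 UMIs (34 male, 41 female), 20 to 79 (30 and 23) and 80 or more (53 and 27). These are ranges of a count and not cell types: 18 male and 15 female nuclei had 15 to 24 Adarb2 UMIs, and 9 in each library had 60 to 99. The lowest range held 29.1% of male and 45.1% of female ones. Median depth in the lowest range was 6596 UMIs in male and 9230 in female nuclei, against 11939 and 12944 in the highest. At the lower edge, nuclei with 3 to 5 Adarb2 UMIs (7 male, 9 female) had Cnr1 at 89.1 and 30.4 CPM and no Vip UMI. Their neighbours with 1 or 2 Adarb2 UMIs (22 and 16) had Cnr1 at 82.7 and 50.0 CPM.

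The label was borne out in part. Gad1 and Gad2, which make GABA and chose the nuclei, were at 346 and 340 CPM in male and 293 and 376 CPM in female nuclei. Cnr1, Vip, Htr3a and Cck were higher than in the other GABA nuclei in both libraries, but Cck was no higher than in oligodendrocyte nuclei. Cnr1 (chromosome 4, 33924593 to 33948831, GRCm38) was at 729 CPM (682 to 778) in male and 453 CPM (413 to 496) in female Adarb2 GABA nuclei, and at 113 and 85.0 CPM in the other GABA nuclei. Excitatory nuclei had 57.9 and 47.1 CPM of Cnr1 and oligodendrocyte nuclei 50.9 and 35.3 CPM. A Cnr1 UMI was seen in 74.4% of male and 64.8% of female Adarb2 GABA nuclei, and in 38.9% and 39.4% of excitatory nuclei.

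Cnr1 followed the Adarb2 count. Nuclei with 3 to 19 Adarb2 UMIs had 136 and 129 CPM of Cnr1, those with 20 to 79 had 295 and 265 CPM, and those with 80 or more had 1169 and 924 CPM. Of the nuclei in the highest range, 94.3% of male and 100% of female ones held a Cnr1 UMI, with medians of 12 and 9 UMIs per nucleus. In the lowest range the medians were 0.5 and 0 and the highest count was 8 in a male and 19 in a female nucleus. The order of the 3 ranges was therefore the same in both libraries, and the lowest range lay close to the other GABA nuclei.

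**Figure D1:**
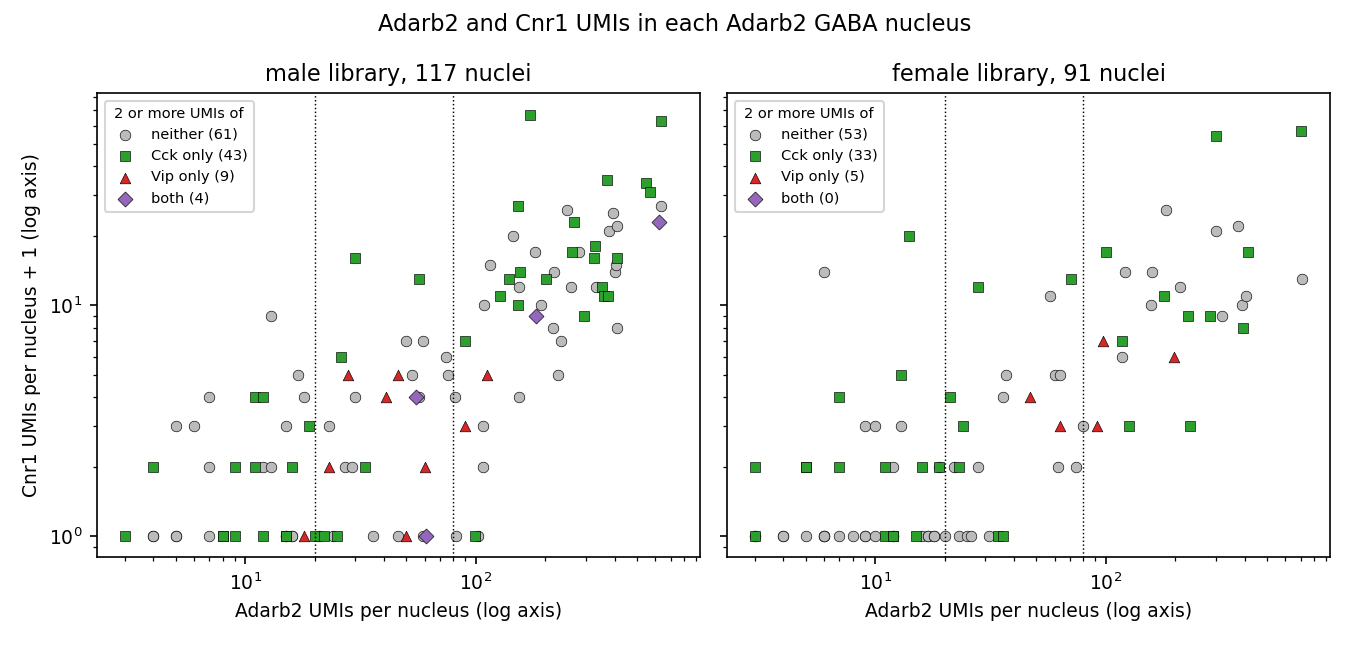
Each point is 1 Adarb2 GABA nucleus, with its Adarb2 UMIs (x, log axis) and its Cnr1 UMIs plus 1 (y, log axis) in the male (117 nuclei) and female (91 nuclei) library; colours give nuclei with 2 or more UMIs of Vip, Cck, both or neither, and dotted lines mark 20 and 80 Adarb2 UMIs. Right of the line at 80, 3 male nuclei and no female one lack a Cnr1 UMI, and nuclei with Vip alone lie between 18 and 197 Adarb2 UMIs.

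Vip (chromosome 10, 5639218 to 5647617) was at 46.1 CPM (34.9 to 59.8) in male and 25.9 CPM (17.1 to 37.7) in female Adarb2 GABA nuclei, against 2.34 and 5.52 CPM in the other GABA nuclei and 2.80 and 0.927 CPM in excitatory nuclei. Few nuclei carried it: 16.2% of male and 6.59% of female nuclei had a Vip UMI, beside 2.59% and 1.21% of excitatory nuclei. Of the other GABA nuclei, 2.98% and 3.78% had one. At least 2 Vip UMIs were held by 13 male and 5 female Adarb2 GABA nuclei, and by 1 and 9 of the other GABA nuclei. In the female library more Vip UMIs thus lay in the other GABA nuclei (54) than in the Adarb2 GABA nuclei (27). One female nucleus supplied 37.0% of the female Vip UMIs. Vip was not tied to the highest Adarb2 counts. Its level was 21, 98.4 and 34.6 CPM over the 3 rising Adarb2 ranges in the male library and 0, 42.0 and 44.2 CPM in the female one, so the middle range was the highest in male nuclei and the lowest range held no female Vip UMI. With every nucleus thinned to 3000 UMIs and selected anew, the female log2 ratio of Vip against other GABA nuclei went from 1.56 to -2.66.

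Cck (chromosome 9, 121489824 to 121495694, minus strand) was at 189 CPM (165 to 214) in male and 131 CPM (110 to 154) in female Adarb2 GABA nuclei. The other GABA nuclei had 125 and 60.2 CPM, excitatory nuclei 135 and 72.5 CPM, and oligodendrocyte nuclei 192 and 139 CPM. A Cck UMI was present in 70.9% and 67.0% of Adarb2 GABA nuclei, and in 55.6% and 44.2% of the much shallower oligodendrocyte nuclei. With each nucleus thinned to 3000 UMIs the shares were 37.1% and 34.8%, against 33.2% and 28.7% in oligodendrocyte nuclei, 1299 and 2413 of which were too shallow to be kept. The summed Cck level was thus no higher than in the shallower oligodendrocyte nuclei, though above that of excitatory nuclei, which were closer in depth. The highest count in a nucleus was 20 (male) and 9 (female) in Adarb2 GABA nuclei. It was 7 and 8 in oligodendrocyte nuclei and 20 and 8 in excitatory nuclei. The summed Cck level did not follow Adarb2: the lowest range had 210 and 138 CPM and the highest 213 and 122 CPM. A Cck UMI in 1 of these nuclei is not read as expression below.

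Htr3a, a serotonin-gated channel subunit, was at 27.5 CPM in male and 7.68 CPM in female Adarb2 GABA nuclei, against 3.35 and 1.94 CPM in the other GABA nuclei. These levels rest on 34 male and 8 female UMIs in Adarb2 GABA nuclei. Htr3a was too low in the female library to be among the genes compared with the other GABA nuclei below. It was seen in 18.8% and 6.59% of the nuclei, and in 0.682% and 0.324% of excitatory nuclei. The 7 male and 2 female nuclei with at least 2 Htr3a UMIs all had at least 2 Rgs12 UMIs as well. Among all Adarb2 GABA nuclei, 42 of 117 male and 23 of 91 female ones had that many Rgs12 UMIs, so an overlap in so few nuclei shows little. Its level in the highest Adarb2 range was 36.1 and 13.0 CPM, and in the lowest 10.5 and 0 CPM.

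Genes were then compared with the other GABA nuclei within each library. The ratio was log2 of CPM plus 5 over CPM plus 5, and a gene was counted where it exceeded 2-fold in the same direction in both libraries. Of 7005 genes with enough UMIs, 44 were higher in Adarb2 GABA nuclei (0.628%) and 26 were lower (0.371%), with a median log2 ratio over all genes of -0.03 (male) and 0.00 (female). The nuclei were chosen on their UMIs, so these ratios describe them and test nothing. The genes of the selection rule were left out of the counts.

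Of the 10 markers listed for Cck basket cells, 6 had enough UMIs and 4 of these were higher in both libraries. Their median log2 ratio was 1.84 in male and 1.43 in female nuclei. Cnr1 had log2 ratios of 2.63 (2.49 to 2.78) and 2.35 (2.19 to 2.51). Slc17a8, the vesicular glutamate transporter VGLUT3 that some Cck basket cells use beside GABA, was at 51.0 and 40.3 CPM against 4.52 and 6.34 CPM. Col14a1, a fibril-associated collagen, was at 31.6 and 39.4 CPM against 4.52 and 7.67 CPM. The chemokine Cxcl14 was at 58.3 and 25.9 CPM against 14.1 and 10.4 CPM. Cck missed 2-fold in the male library, and the calcium-binding protein Calb1 was level in both, at 52.6 and 35.5 CPM against 55.5 and 35.3 CPM. Krt73, another marker on the list, was at 16.2 and 1.92 CPM and was too low to be compared.

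Vip and Npas1 were the members of the Vip list with enough UMIs, and both were higher in both libraries. Npas1, a transcription factor that restrains the generation of caudal interneurons, was at 104 and 51.8 CPM against 16.6 and 14.2 CPM. It was found in 46.2% of male and 27.5% of female Adarb2 GABA nuclei and in 2.18% and 1.62% of excitatory nuclei. The rest of the Vip list was sparse: Calb2 was at 3.24 and 3.84 CPM, the opioid precursor Penk at 7.28 and 5.76 CPM, and Tac2 at 12.9 and 2.88 CPM. Calb2 and Penk thus lay under 10 CPM in both libraries.

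Among transcription factors of the caudal eminence, 2 of 5 with enough UMIs were over 2-fold higher in both libraries, and the median log2 ratios of the 5 were 0.84 and 0.85. These were Npas1 and its relative Npas3, the latter at 2753 and 2303 CPM against 944 and 944 CPM. The orphan nuclear receptor Nr2f2 was at 31.6 and 27.8 CPM against 15.4 and 13.2 CPM, and Prox1 at 130 and 72.0 CPM against 92.2 and 55.1 CPM. Prox1 is also a marker of dentate granule neurons. It was at 157 and 85.8 CPM in the lowest Adarb2 range, 242 and 105 CPM in the middle one and 70.6 and 36.4 CPM in the highest, so the highest range had the least of it. Npas3 followed the order of the ranges, with 763 and 751 CPM, then 1613 and 1824 CPM, then 4096 and 4295 CPM. Of the 17 interneuron transcription factors compared, 1 was over 2-fold, Dlx6os1, an antisense transcript of the Dlx5 and Dlx6 locus, at 560 and 338 CPM against 193 and 150 CPM. Dlx1 was at 54.2 and 34.6 CPM against 29.1 and 20.5 CPM.

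Of the 7 medial eminence markers with enough UMIs, 2 were over 2-fold lower in both libraries and none was higher, with median log2 ratios of -0.86 and -0.40. Sox6, a factor downstream of Lhx6, was at 71.2 and 61.4 CPM against 187 and 172 CPM, and the chromatin organiser Satb1 at 59.1 and 46.1 CPM against 147 and 108 CPM. Nxph1, a neurexin ligand, was at 583 and 958 CPM against 1661 and 1263 CPM, so the difference was smaller in female nuclei. Sst had 43.7 and 20.2 CPM against 83.7 and 28.1 CPM, and Pvalb 7.28 and 7.68 CPM against 30.4 and 16.0 CPM.

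Markers of Lamp5 interneurons were present although every nucleus lacked Lamp5. Reln, a secreted glycoprotein, was at 636 and 451 CPM, against 328 and 216 CPM in the other GABA nuclei and 6.11 and 4.40 CPM in excitatory nuclei. Ndnf, a secreted neurotrophic factor, was at 82.5 and 50.9 CPM against 19.9 and 11.9 CPM and was the 1 gene of the 7 compared that passed 2-fold in both libraries. In the 35 male and 24 female GABA nuclei with at least 2 Lamp5 UMIs, Reln was at 1068 and 584 CPM and Ndnf at 82.9 and 34.2 CPM. Every one of the 20 male nuclei with at least 2 Ndnf UMIs had at least 2 Reln UMIs, as did 8 of the 9 female ones. Kit was at 109 and 64.3 CPM against 39.7 and 32.0 CPM.

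Beyond the lists, the highest genes by the smaller of both ratios were, after Cnr1, the G protein regulator Rgs12 at 179 and 111 CPM against 21.1 and 19.2 CPM, and the synaptotagmin Syt6 at 129 and 60.5 CPM against 8.37 and 11.0 CPM. Their log2 ratios were 2.82 and 2.26 for Rgs12, and 3.33 and 2.03 for Syt6. The phosphodiesterase Pde3a was at 253 and 203 CPM against 60.4 and 52.6 CPM. The growth factor Igf1 was at 195 and 179 CPM against 36.1 and 58.0 CPM, and at 1.57 and 1.10 CPM in excitatory nuclei. A UMI of Igf1 was in 49.6% of male and 49.5% of female Adarb2 GABA nuclei. Pdzrn3, a ubiquitin ligase, and Trp53i11 completed the 12 highest, with log2 ratios of 2.10 and 1.66, and of 1.84 and 1.58.

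The lowest gene was Moxd1, a monooxygenase-like protein, with 1 UMI in male and 0 in female Adarb2 GABA nuclei against 236 and 227 UMIs in the other GABA nuclei. In the female library it was 8.06-fold lower with 3 counts set in place of 0. Gna14, a G protein alpha subunit, followed with log2 ratios of -2.21 (-2.57 to -1.47) and -2.24 (-2.49 to -1.42). The synaptotagmin Syt2, known from fast-spiking basket cells, had ratios of -1.81 and -1.63, and the guidance ligand Slit2 of -1.56 and -1.31. The nuclear noncoding RNA Neat1 was at 14.6 and 11.5 CPM against 52.2 and 73.2 CPM. D7Ertd443e, Tmem44, Gm28501, Agbl1, Eya4, Sox6 and Pde8a made up the rest of the 12 lowest, of which Eya4 turned to 0.16 in the female library after thinning.

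**Figure D2:**
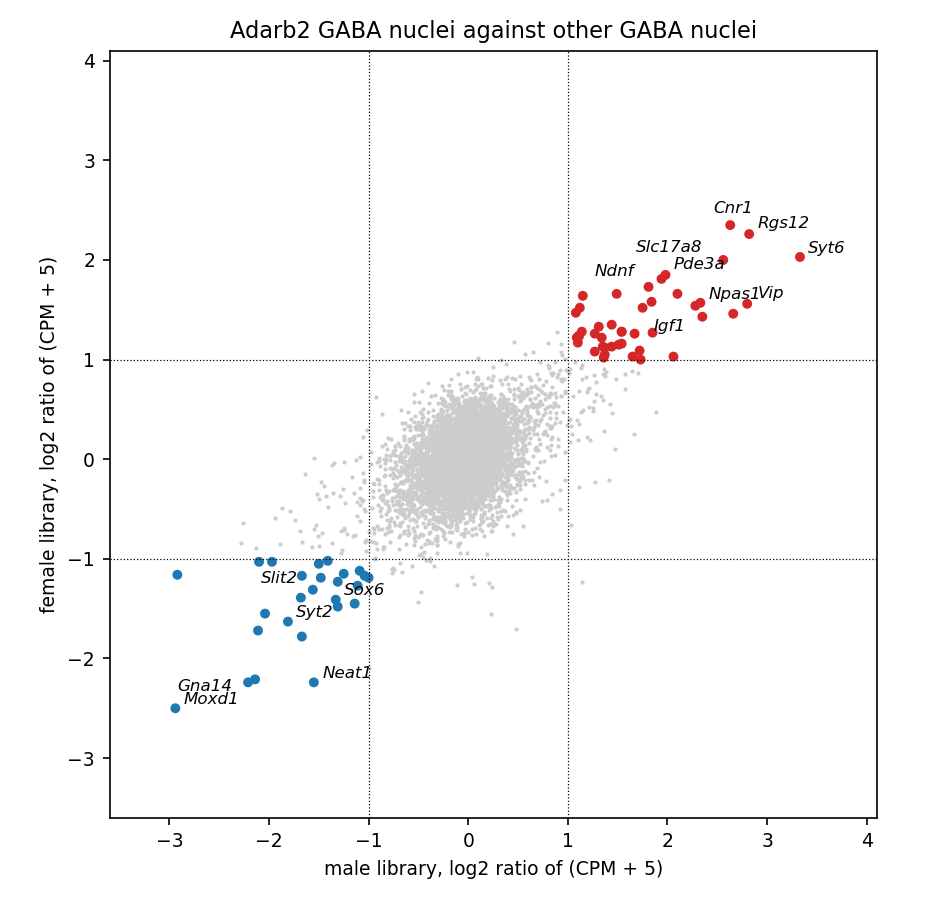
Log2 ratio of CPM plus 5 in Adarb2 GABA nuclei over other GABA nuclei in the male (x) and female (y) library for the 7005 genes compared; red and blue points are the 44 higher and 26 lower genes past 2-fold in both, and dotted lines mark 2-fold. Cnr1, Rgs12 and Syt6 exceed 2 on both axes, and Moxd1 and Gna14 lie below -2 on both.

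Most functional families did not separate these nuclei from other GABA nuclei by 2-fold. No gene passed among the 4 compared for GABA synthesis and breakdown, the 10 GABA-A receptor subunits, the 16 ionotropic and 5 metabotropic glutamate receptor genes, the 15 sodium and calcium channel genes, the 23 potassium and HCN channel genes, or the 4 acetylcholine receptors. In endocannabinoid signalling, 10 of 13 genes were compared and Cnr1 was the 1 past 2-fold. Dagla, which makes the endocannabinoid 2-AG, was at 46.9 and 46.1 CPM against 61.6 and 60 CPM, and Mgll, which breaks it down, at 129 and 119 CPM against 144 and 101 CPM. The anandamide hydrolase Faah was at 61.5 and 49.0 CPM against 62.1 and 48.5 CPM. The receptor gene thus differed while the enzymes differed by less than 2-fold.

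Among neuropeptide and serotonin receptors, 2 were over 2-fold lower in both libraries. The delta opioid receptor Oprd1 was at 6.47 and 7.68 CPM against 44.3 and 21 CPM, 1 lower of 3 neuropeptide receptors compared. The serotonin receptor Htr1f was at 40.5 and 74.9 CPM against 116 and 158 CPM, 1 lower of 5. The muscarinic receptor Chrm3 was at 948 and 965 CPM against 469 and 736 CPM, under 2-fold in the female library. Of 10 calcium-binding proteins 1 was past 2-fold, Necab1, at 254 and 229 CPM against 115 and 95.2 CPM. Of 20 vesicle genes Syt6 was higher and Syt2 lower, while the main calcium sensor Syt1 was at 3079 and 3243 CPM against 3158 and 3133 CPM.

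Against the 17 male and 15 female GABA nuclei with at least 2 Lhx6 UMIs, Cnr1 had log2 ratios of 3.93 and 4.51, Rgs12 of 3.65 and 2.83, and Npas3 of 1.74 and 1.81. Sox6 had -1.87 and -2.54 and Nxph1 -2.03 and -1.14. Against the Lamp5 nuclei, Cnr1 had 2.95 and 2.38, Npas3 2.73 and 2.53, and Nxph1 -2.28 and -1.43. Ndnf was level with the Lamp5 nuclei, at -0.01 and 0.51, and Reln was somewhat lower, at -0.74 and -0.37. Cnr1 and Npas3 thus marked the Adarb2 GABA nuclei against both kinds of GABA nuclei, and Ndnf and Reln did not mark them against Lamp5 nuclei.

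The composition of the selection was examined by comparing nuclei with 80 or more Adarb2 UMIs with those below 20. Of 2785 genes compared, 96 were over 2-fold higher with 80 or more in both libraries (3.45%) and 139 were lower (4.99%), with median log2 ratios of -0.05 and -0.07. Since Adarb2 UMIs set the groups, the ratios are a description. Higher genes included Pde3a, at 382 and 471 CPM against 17.5 and 4.77 CPM, Cadps2, a priming factor for dense-core vesicles, at 1819 and 1398 CPM against 154 and 117 CPM, and the collagen Col19a1, at 1634 and 1640 CPM against 136 and 155 CPM. Syt6 was at 231 and 138 CPM against 10.5 and 11.9 CPM, and Rgs12 at 254 and 252 CPM against 38.5 and 14.3 CPM. Npas1 was at 155 and 117 CPM against 14 and 0 CPM, which in the female library is 16.4-fold with 3 counts set in place of 0. Slc17a8 reached 93.2 and 80.7 CPM in the highest range.

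Other families differed between these ranges too. Of 6 calcium-binding proteins compared, 3 were higher with 80 or more Adarb2 UMIs: Necab1 at 401 and 427 CPM against 17.5 and 119 CPM, Kcnip1 at 552 and 640 CPM against 49.0 and 262 CPM, and Vsnl1 at 428 and 377 CPM against 175 and 150 CPM. Of 17 potassium and HCN channel genes, 3 were higher (Kcnc2, Kcnq5 and Kcnmb2) and 1 was lower (Kcnd2). Kcnc2, a channel for rapid repolarisation, was at 1482 and 1538 CPM against 308 and 662 CPM. Chrm3 was at 1320 and 1554 CPM against 374 and 503 CPM. Of 5 metabotropic glutamate receptors compared, 3 were over 2-fold lower in the highest range, among them Grm3 and Grm7, and 0 were higher. Reln was at 728 and 700 CPM against 280 and 284 CPM.

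Nuclei with few Adarb2 UMIs had higher summed levels of markers of other cell types. The summed level of 8 excitatory markers, all of them detected, was 3160 CPM in male and 1368 CPM in female nuclei of the lowest range, and 985 and 786 CPM in the highest. All 3 astrocyte markers compared were over 2-fold lower in the highest range in both libraries, with the 8 astrocyte markers summing to 1834 and 1191 CPM in the lowest and 531 and 354 CPM in the highest. Granule neuron markers summed to 1893 and 1079 CPM and then 713 and 310 CPM, and oligodendrocyte markers to 1333 and 834 CPM and then 343 and 435 CPM. Fewer single genes of these other lists passed 2-fold in both libraries. They were 1 of 4 excitatory, 3 of 4 granule neuron and 1 of 3 oligodendrocyte markers compared, each lower in the highest range. At least 3 UMIs of excitatory genes were present in 50.0% of male and 29.3% of female nuclei of the lowest range and in 32.1% and 14.8% of the highest. Of the lowest range, 20.6% and 7.32% lay in the top 8% of doublet scores of their library, against 1.89% and 0% of the highest. The part of free RNA or of doublets in these differences was not tested.

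A set of genes of striatal and amygdalar GABA neurons was also concentrated in the lowest range. The transcription factor Meis2 was at 150 and 391 CPM there and at 22.5 and 15.6 CPM in the highest range, and Foxp2 at 59.5 and 307 CPM and then 3.01 and 5.21 CPM. The 8 markers of this list, 1 to 3 of which had no UMI in a given range, summed to 290 and 915 CPM in the lowest range and 55.6 and 31.2 CPM in the highest. Of the 11 female nuclei with at least 2 Foxp2 UMIs, 9 had at least 2 Meis2 UMIs and 1 had at least 2 Cnr1 UMIs. In male nuclei 4 had Foxp2, of which 2 had Meis2 and 2 had Cnr1, and 1 nucleus held 54.2% of the male Foxp2 UMIs. Of the 10 male and 17 female nuclei with at least 2 Meis2 UMIs, 7 and 6 had Cnr1, beside 74 of 117 and 45 of 91 among all Adarb2 GABA nuclei.

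**Figure D3:**
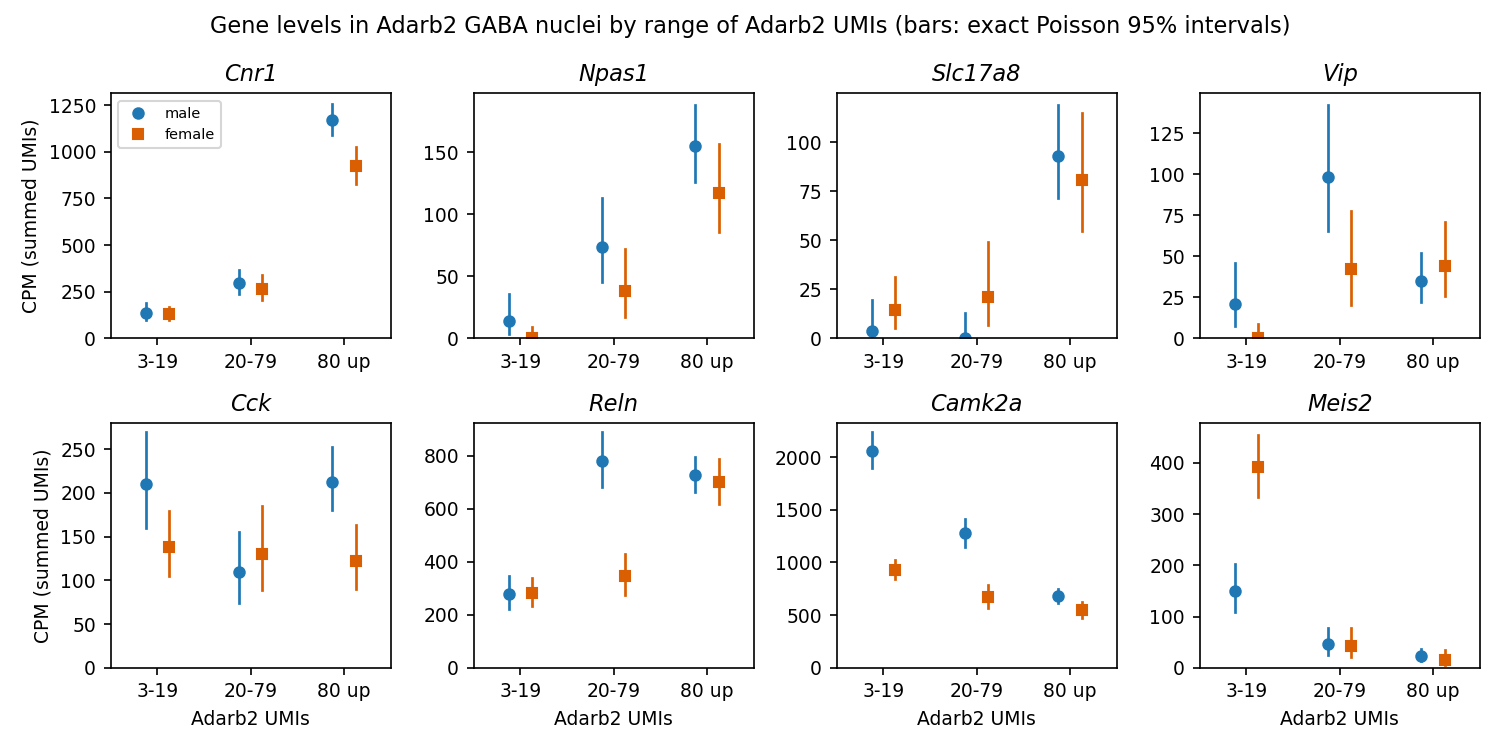
CPM of 8 genes in Adarb2 GABA nuclei with 3 to 19, 20 to 79 and 80 or more Adarb2 UMIs, in the male (circles) and female (squares) library, with exact Poisson 95% intervals of the UMI sums. Cnr1, Npas1 and Slc17a8 are highest on the right in both libraries, Camk2a and Meis2 are highest on the left, and Cck shows no order.

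Co-detection was counted over nuclei with at least 2 UMIs of each gene. Among all Adarb2 GABA nuclei, 74 of 117 male and 45 of 91 female ones had Cnr1, 49 and 39 had Reln, and 13 and 5 had Vip. Of 40 male and 17 female nuclei with Npas1, 37 and 17 had Cnr1. Of 13 and 10 nuclei with Slc17a8, 13 and 9 had Cnr1, and none had Vip. Of 18 and 6 nuclei with Cxcl14, 17 and 6 had Cnr1, 13 and 6 had Reln, and none had Vip. Rgs12 was found in 42 and 23 nuclei, of which 39 and 22 had Cnr1. Vip nuclei had Cnr1 in 8 of 13 and 5 of 5 cases, and Reln in 1 of 13 and 0 of 5, so in the male library Cnr1 was as common in them (61.5%) as in all (63.2%). With so few Vip nuclei, their absence among Slc17a8 or Cxcl14 nuclei shows little. These are counts of nuclei within 1 library each, and deeper nuclei show more genes of every kind.

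To compare Vip with Cck, nuclei were divided at 2 UMIs of each peptide gene. Vip without Cck was found in 9 male and 5 female nuclei, Cck without Vip in 43 and 33, both in 4 and 0, and neither in 61 and 53. The zero in the female library allows a share of up to 3.30%. The Vip nuclei were shallower, at medians of 5534 and 6121 UMIs against 11939 and 10833 in the Cck nuclei. Given the Cck level of oligodendrocyte nuclei described above, the Cck nuclei are a mixed group. Their Adarb2 counts ran from 3 to 637 (median 90, male) and 3 to 699 (median 23, female). Those of the Vip nuclei ran from 18 to 112 (median 46) and 47 to 197 (median 92). Cnr1 was at 366 and 528 CPM in Vip nuclei and 913 and 565 CPM in Cck nuclei.

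Of 2724 genes compared, 66 were over 2-fold higher in Vip nuclei in both libraries (2.42%) and 220 were higher in Cck nuclei (8.08%). The median gene was shifted by -0.11 and -0.22 on the log2 scale, so the typical gene leaned towards Cck nuclei too. The Vip nuclei summed to 51939 and 34115 UMIs, against 528106 and 435369 in the Cck nuclei. A gene with few UMIs can thus read 0 in the Vip nuclei alone. With 4 times the minimum of UMIs, 28 genes were higher in Vip and 51 in Cck nuclei. How much of the excess on the Cck side comes from the low Vip sums was not tested. Higher in Vip nuclei were Grm8, a metabotropic glutamate receptor, at 1579 and 1905 CPM against 89.0 and 204 CPM, and Zfp804a, a zinc finger protein, at 2118 and 1524 CPM against 169 and 186 CPM. Grm8 was seen in all 9 male but in 3 of 5 female Vip nuclei, and 1 of these held 69.2% of the female Grm8 UMIs. For Zfp804a, 1 nucleus held 55.5% of the male and 1 held 46.2% of the female UMIs. With so few Vip nuclei, single nuclei set several of these levels.

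Genes found in every Vip nucleus included Cntnap2, a neurexin relative, at 13477 and 20519 CPM against 2558 and 3342 CPM in Cck nuclei, and Erbb4, the neuregulin receptor, at 10166 and 10875 CPM against 2475 and 3709 CPM. The sodium-activated potassium channel Kcnt2 was at 1136 and 2550 CPM against 263 and 198 CPM, also in all 14 Vip nuclei. Prr16, Limch1, Ano4 and the growth factor receptor Egfr were the other genes among the 8 highest. Prox1 was at 462 and 293 CPM against 127 and 59.7 CPM. Of 9 GABA-A receptor subunits compared, 1 was higher in Vip nuclei, Gabrg3, and 1 was lower, Gabra2. Of 14 ionotropic glutamate receptor genes, 2 were higher, among them Grik1, and 1 was lower, Gria3. Of 5 metabotropic ones, 2 were higher, Grm7 and Grm8, and 0 were lower. Of 17 potassium and HCN channel genes, Kcnb2, Kcnmb2 and Kcnt2 were higher in Vip nuclei and 5, among them Kcnd2 and Kcnh7, were lower.

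On the Cck side, Col25a1, a transmembrane collagen, had 1128 and 599 UMIs in Cck nuclei, present in 36 of 43 and 25 of 33 of them, and 0 and 1 UMI in Vip nuclei. With 3 counts set in place of 0 it was 37.0-fold higher in male Cck nuclei. Its log2 ratio in the female library was -5.33 (-7.91 to -3.03). Frem1, an extracellular matrix protein, had 147 and 95 UMIs against none in Vip nuclei, 4.82-fold and 2.48-fold higher by the same reckoning. By it the adenylate kinase Ak5 was 3.64-fold and 2.25-fold higher, the adhesion protein Igsf11 2.95-fold and 1.75-fold, and Sema3c 2.43-fold and 1.41-fold. These folds leave out the counting error of the Cck nuclei. Female intervals of the log2 ratio ended at -0.45 for Igsf11 and -0.14 for Sema3c. Ndst3, Neto2 and Rbms1 completed the 8 genes. For Neto2 (-4.24 to 0.32) and Rbms1 (-4.13 to 0.44) the female interval included no difference. Reln had 111 and 138 UMIs in Cck nuclei and 2 and 0 in Vip nuclei. All Adarb2 GABA nuclei together held 786 and 470 Reln UMIs, so most lay outside both groups. Reln was thus sparse in Vip nuclei but not particular to Cck nuclei. Slc17a8 had 36 and 22 UMIs in Cck nuclei and none in Vip nuclei. With 3 counts set in place of 0 it was 1.18-fold higher in male Cck nuclei. The level in female Cck nuclei lay under what a count of 0 allows in the Vip nuclei.

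**Figure D4:**
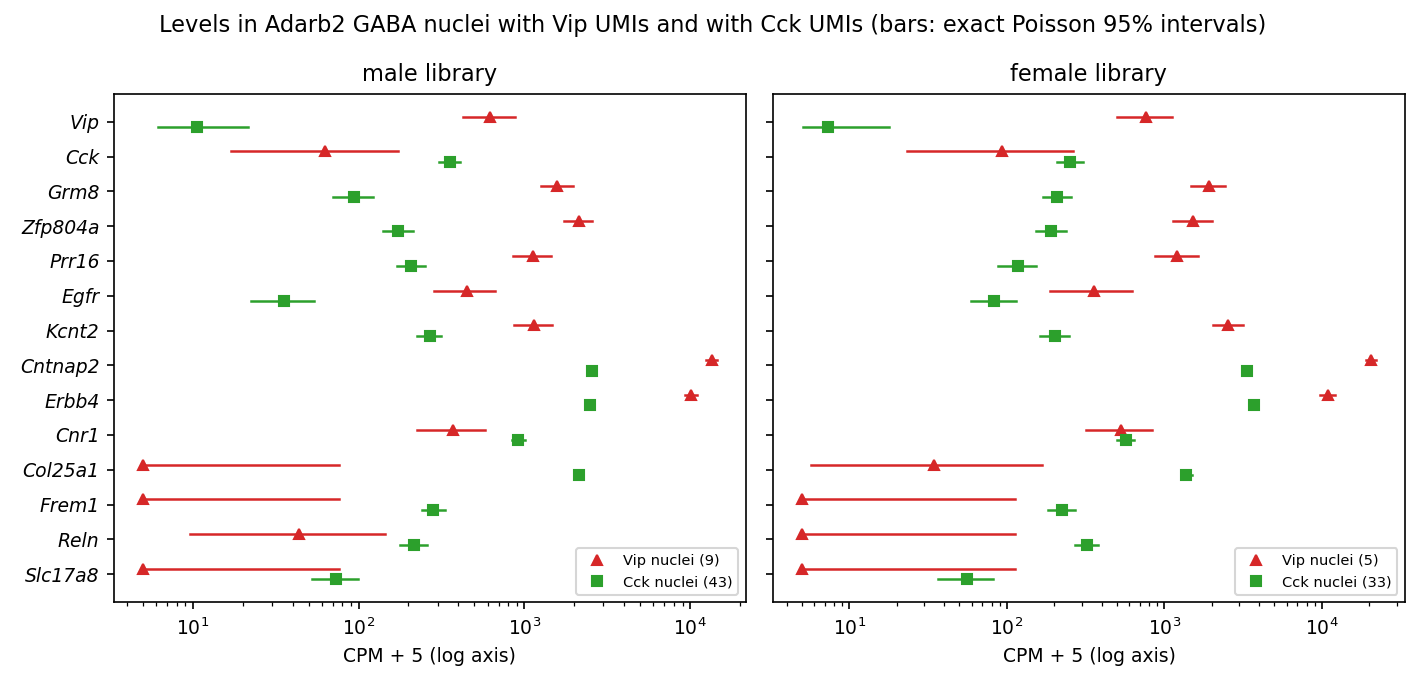
CPM plus 5 (log axis) of 14 genes in Adarb2 GABA nuclei with at least 2 Vip and under 2 Cck UMIs (triangles; 9 male, 5 female) and with the reverse (squares; 43 and 33), with exact Poisson 95% intervals. Grm8, Zfp804a, Cntnap2 and Erbb4 lie to the right in Vip nuclei of both libraries, and Col25a1 and Frem1 to the right in Cck nuclei.

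Between the libraries, 115 of 6777 genes were over 2-fold higher in male Adarb2 GABA nuclei (1.70%) and 57 were higher in female ones (0.841%), among them 4 and 2 genes of the sex chromosomes that served to check the labels. The typical gene was shifted by 0.08 towards male, and with ratios centred on it the counts were 74 and 71. Adarb2 itself had a log2 ratio of 0.66, Cnr1 of 0.68, Vip of 0.73 and Cck of 0.51. Among nuclei with 80 or more Adarb2 UMIs the ratio of Cnr1 was 0.34 and that of Adarb2 0.21. Adarb2 UMIs set this range, so the ratio of Adarb2 within it is limited by the choice of nuclei. Whether the smaller share of Adarb2-rich nuclei in the female library accounts for any of these differences was not tested.

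Leaving out the sex-chromosome genes, the highest gene of the male library was Ttr, the transthyretin of choroid plexus, at 564 against 25.9 CPM in Adarb2 GABA nuclei. It was in 96.6% of male and 23.1% of female nuclei. The other GABA nuclei had 476 and 33.5 CPM, excitatory nuclei 459 and 35.1 CPM and oligodendrocyte nuclei 945 and 76.5 CPM, so Ttr was higher in the male library in each of these groups. Other genes higher in the male library were Stx1a, a release syntaxin, at 42.9 and 10.6 CPM, C1ql3 at 101 and 31.7 CPM, and the neuropeptide Y receptor Npy1r at 45.3 and 11.5 CPM, against 19.2 and 10.1 CPM in the other GABA nuclei. Npy was at 84.2 and 33.6 CPM and Syt6 at 129 and 60.5 CPM. Gm4876, Pacsin2, Gpc4, Adamts18 and Gm29514 were also among the 10 highest. After thinning, the log2 ratios of Npy1r (-0.96), Pacsin2 (-0.24), Gm4876 (-2.44) and Adamts18 (-2.11) pointed to the female library.

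Immediate early genes, which neurons switch on after activity, were divided between the libraries. Of 9 compared, 2 were higher in male and 5 in female Adarb2 GABA nuclei, and the median log2 ratio was -1.19. Fosb had 1 male and 49 female UMIs (0.809 and 47.0 CPM), in 1 of 117 and 12 of 91 nuclei. Egr1 was at 12.1 and 35.5 CPM, Junb at 13.8 and 42.2 CPM, Nr4a1 at 23.5 and 60.5 CPM and Nr4a3 at 18.6 and 49.0 CPM. Jun ran the other way, at 36.4 and 6.72 CPM, as did Jund at 70.4 and 23.0 CPM. In the other GABA nuclei Fosb was at 2.17 and 20.1 CPM and Jun at 31.1 and 11.3 CPM, so both genes had the same order there.

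Foxp2 and Meis2 were higher in the female library. Foxp2 was at 19.4 CPM in male and 132 CPM in female nuclei, in 7 and 15 nuclei, and Meis2 at 57.5 and 173 CPM. With Rarb, a retinoic acid receptor, at 29.1 and 72.0 CPM, all 3 striatal and amygdalar markers compared were over 2-fold higher in the female library. Within nuclei of 80 or more Adarb2 UMIs, Meis2 was at 22.5 and 15.6 CPM and had no such difference. After thinning, with 37 male and 30 female nuclei, the log2 ratios of Foxp2 (1.49) and Meis2 (3.77) pointed to the male library. Il1rapl2, a synaptic adhesion protein, was at 62.3 and 189 CPM, and at 24.1 and 187 CPM in the highest Adarb2 range, where 1 of the 27 female nuclei held 59.7% of its UMIs. Gm10754, Errfi1, Tcf7l2, Gm30382, Mctp2 and Col11a1 completed the 10 genes highest in the female library when sex-chromosome genes are left out.

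Restricted to nuclei with 80 or more Adarb2 UMIs (53 male, 27 female), 87 of 3640 genes were higher in male nuclei (2.39%) and 32 in female ones (0.879%). Ttr was again first on the male side, at 365 and 7.81 CPM. On the female side the heparan sulfate enzyme Hs3st4 was at 45.1 and 328 CPM, with 1 nucleus holding 46.0% of the female UMIs. Trhde, which degrades thyrotropin-releasing hormone, was at 90.2 and 328 CPM in 18 of 53 and 15 of 27 nuclei. Kctd8, a GABA-B receptor auxiliary subunit, was at 116 and 398 CPM in 23 and 15 nuclei, with 41.2% of the female UMIs in 1 nucleus. No gene of the 2616 compared in both the highest and the lowest range was over 2-fold in opposite directions between them.

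**Figure D5:**
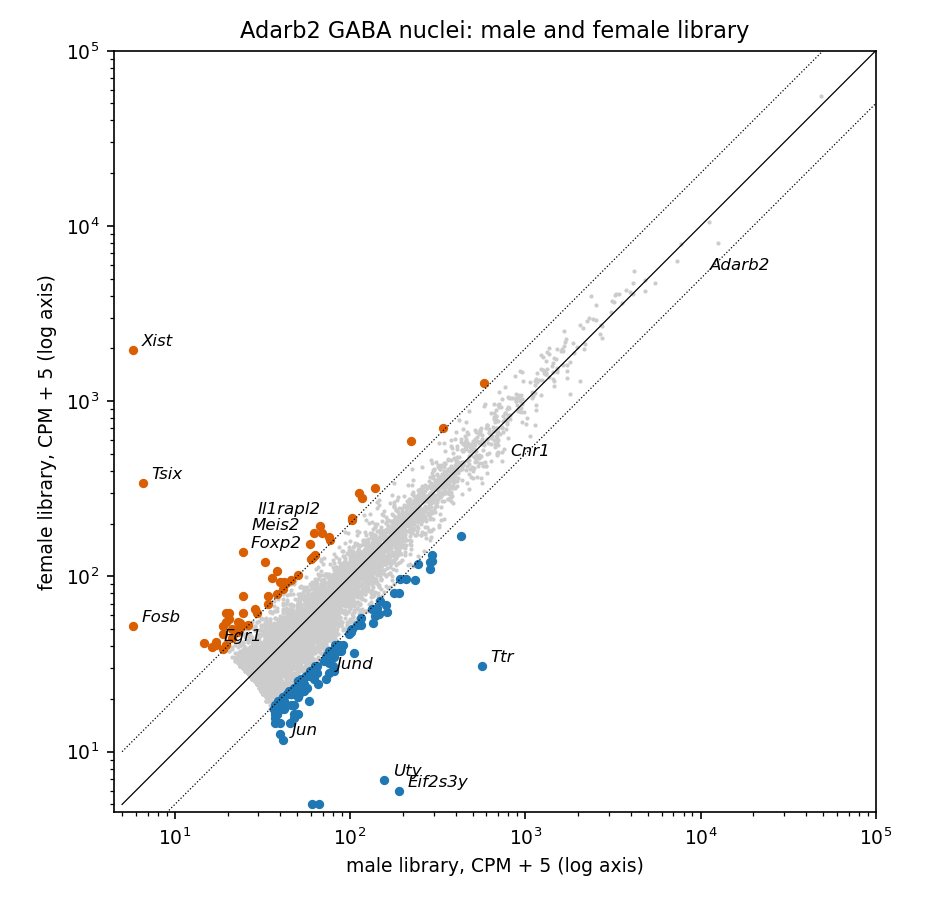
CPM plus 5 in Adarb2 GABA nuclei of the male (x) and female (y) library for the 6777 genes compared, both on log axes; blue and orange points are over 2-fold higher in the male and female library, the line marks equal levels and dotted lines mark 2-fold. Ttr and the Y-linked genes lie far on the male side, and Xist, Fosb and Foxp2 on the female side.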

How the data were processed

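Nuclear RNA was counted in 2 droplet libraries (3′ v3.1 chemistry, per the labels' protocols). The authors deposited raw UMI counts per gene and barcode, and per the file headers Cell Ranger 7.0.1 produced them. Demultiplexing with bcl2fastq 2.20.0.422 and the mm10 build are named in the submitters' processing notes, and the barcode-calling rule was not given in the sources used here. All levels were computed here from those counts: UMIs were summed per library and group, expressed as CPM, and compared as log2 ratios of CPM plus 5, which understates ratios of low genes. A gene was compared where both groups held at least 50 UMIs together in each library (30 for Vip against Cck nuclei; 50 over both libraries between the sexes) and either group reached 20 CPM. Shares have exact Clopper-Pearson intervals, sums exact Poisson and ratios conditional binomial ones, at 95%. A level of 0 was given the limit of 3 counts, and folds against it leave out the counting error of the other group.

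Beyond fixed gene lists, the genes named were the 12 highest and lowest against other GABA nuclei, the 8 highest and lowest between Vip and Cck nuclei and the 10 highest and lowest between the libraries, by the smaller ratio; genes named by Adarb2 range were taken after their values were seen. The nuclei, lists and comparisons were chosen with earlier results of these data known. Excitatory nuclei had at least 3 Slc17a7 UMIs and oligodendrocyte nuclei at least 5 UMIs of St18, Prr5l and Mag, both without Gad1, Gad2 or Slc32a1. Lhx6 nuclei were other GABA nuclei with at least 2 Lhx6 and no Lamp5 UMIs and Lamp5 nuclei those with at least 2 Lamp5 UMIs, under the same limits on Ebf2, 6330411D24Rik and oligodendrocyte genes. Doublets were not removed; Scrublet scores (scanpy 1.11.5) served as an alternative. Gene positions are from GENCODE M21 and promoters from RefSeq. The ratio code was tested on simulated data. Python tools were numpy 2.4.6, scipy 1.17.1, pandas 2.3.3 and matplotlib 3.10.9.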

Additional observations from a re-analysis of the deposited data

How the results depend on the processing

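Results were recomputed with stricter quality limits, without high doublet scores, with other limits on Adarb2, Gad and excitatory UMIs, after thinning, and with other pseudocounts, UMI minimums, centring and averaging. After thinning every nucleus to 3000 UMIs and selecting anew, the Adarb2 GABA nuclei numbered 37 and 30, were 32.5% and 28.6% of GABA nuclei, and no female nucleus had 2 Vip UMIs (0%). Then 12 genes were higher and 11 lower than in other GABA nuclei, 12 (male) and 24 (female) differed between the libraries, and Vip and Cck nuclei could not be compared. With 80 or more Adarb2 UMIs required, a choice made after seeing the data, the shares were 9.58% and 4.35%, 118 genes were higher and 170 lower than in other GABA nuclei, 32 were higher in the female library, and 42 and 135 differed between Vip and Cck nuclei. Without nuclei of 3 or more excitatory UMIs, 77 genes were lower than in other GABA nuclei, 57 higher in the male library, and 40 and 105 differed between Vip and Cck nuclei. A pseudocount of 20 CPM gave 19 higher and 7 lower genes, and 32 (male) and 23 (female) between the libraries; a pseudocount of 1 CPM gave 181 higher in the male library. With 4 times the minimum of UMIs, 20 genes were higher than in other GABA nuclei, 24 and 17 differed between the libraries, and 28 and 51 between Vip and Cck nuclei. With no minimum, 90 genes were higher in the female library, and 274 and 643 differed between Vip and Cck nuclei. Centring gave 74 higher in the male library. A Gad minimum of 8 UMIs, run for the share of GABA nuclei alone, gave 19.8% and 15.8%, and it left 1 male and 0 female Vip nuclei, too few to compare with Cck nuclei. The other settings run left these counts within 1.5 times and the shares within their intervals.

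Thinning turned the ratio of Vip against other GABA nuclei to -2.66 and that of Eya4 to 0.16 in the female library. Between the libraries it turned Gm4876 to -2.44, Pacsin2 to -0.24, Npy1r to -0.96, Adamts18 to -2.11, Foxp2 to 1.49, Gm10754 to 0.59 and Meis2 to 3.77. The limit of 80 Adarb2 UMIs turned Gm30382 to 1.27 and Meis2 to 0.42. Thinning leaves fewer nuclei and UMIs by construction. No paired analysis was possible because each sex has 1 library.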
